A study of Mus musculus with 12 samples.

Results

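The genes described are 239 genes of mouse chromosome 14 that were well expressed in a macrophage cell line and changed little when the cells received lipopolysaccharide (LPS). They were chosen from the deposited log2 expression table as named genes annotated to chromosome 14, each taken at its brightest feature, with a mean of at least 6 over the 12 arrays and a difference under 0.3 between the mean of the LPS arrays and the mean of the unstimulated arrays. Of 1111 chromosome 14 genes measured, 329 passed the minimum mean and 242 of these passed the limit on the LPS difference. Ctsb, Dnajc3 and Stab1 were then left out by name, which gave 239, or 0.876% of the 27293 genes tested. Chromosome 14 was picked with earlier results of these data known, so the counts over its genes are given as a description beside the counts over all genes.

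The study measured RNA from MH-S, a line of mouse alveolar macrophages, in 6 clones and on 12 Affymetrix Mouse Gene 2.1 ST arrays. Clones 7, 29 and 75 were labelled as having low activity of IL-4Ra, the interleukin-4 receptor alpha chain, and clones 69, 73 and 83 as having high activity. The labels do not say how that activity was measured. Each clone was sampled once without stimulation and once after 16 h with 0.2 µg/ml LPS of Salmonella Minnesota R595, which gave 4 groups of 3 arrays, and no other allele or agent was named. A clone is 1 replicate here, and all 6 clones derive from 1 line, so the spread between clones is not a spread between animals. Array medians lay between 4.42 and 4.46 on the log2 scale. Of the macrophage markers, 7 of the 8 found had a mean of at least 6, Cd68, Csf1r and Lyz2 among them, while of 6 alveolar macrophage markers found Itgax alone did, at 7.00. None of the 5 lymphocyte, 6 epithelial, or 6 neutrophil and mast cell markers reached 6, and of 5 fibroblast markers Col1a1 did, at 8.06. None of these markers passed limma between high and low clones at a Benjamini-Hochberg adjusted p of 0.05, but some lay far apart. Tyrobp, a signalling adaptor of myeloid cells, averaged 9.04 in low and 10.72 in high clones (limma adjusted p = 0.0571), Itgam 4.82 and 5.80 (limma adjusted p = 0.205) and Fabp4 5.15 and 6.16 (limma adjusted p = 0.626). The fibroblast marker Dcn averaged 4.67 in low and 3.53 in high clones (limma adjusted p = 0.172). Their part in the results below was not tested. In such bulk RNA, fewer cells expressing a gene and less RNA per cell cannot be told apart.

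Genes on the same chromosome share its DNA copies, and neighbouring genes often lie in a shared chromatin domain. Long-cultured cell lines can gain or lose whole chromosomes or segments of them, and a cell with more copies of a segment tends to carry more RNA of many of its genes. Expression arrays hold no measure of DNA copies or of chromatin, so the values below describe RNA alone.

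The promoters of 4 genes are printed to set genes with a large high against low difference, described below, beside a gene with almost none. Kctd12, Ints6 and Spry2 were among the genes with the largest differences, and Nr1d2 had the difference closest to 0. Each runs 5′ to 3′ on the minus strand, from 250 bases before to 50 bases after the start annotated by RefSeq on GRCm38.p6, and capitals mark GGGCGG or its reverse complement, the letters of the GC box bound by Sp1. They lie at chr14:102982588-102982887 for Kctd12, chr14:62761063-62761362 for Ints6, chr14:105896770-105897069 for Spry2 and chr14:18239057-18239356 for Nr1d2.
Kctd12: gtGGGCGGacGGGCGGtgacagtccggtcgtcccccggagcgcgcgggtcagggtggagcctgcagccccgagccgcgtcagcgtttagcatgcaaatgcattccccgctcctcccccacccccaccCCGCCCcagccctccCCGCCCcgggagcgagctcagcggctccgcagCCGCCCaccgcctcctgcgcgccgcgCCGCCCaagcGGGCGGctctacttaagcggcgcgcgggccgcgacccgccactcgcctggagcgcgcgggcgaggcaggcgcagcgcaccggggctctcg
Ints6: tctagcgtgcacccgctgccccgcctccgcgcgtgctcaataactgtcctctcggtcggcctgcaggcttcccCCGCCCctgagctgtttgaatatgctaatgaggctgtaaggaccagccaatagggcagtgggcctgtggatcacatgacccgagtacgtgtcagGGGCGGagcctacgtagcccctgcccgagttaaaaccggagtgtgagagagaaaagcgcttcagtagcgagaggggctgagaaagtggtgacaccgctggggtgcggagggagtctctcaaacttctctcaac
Spry2: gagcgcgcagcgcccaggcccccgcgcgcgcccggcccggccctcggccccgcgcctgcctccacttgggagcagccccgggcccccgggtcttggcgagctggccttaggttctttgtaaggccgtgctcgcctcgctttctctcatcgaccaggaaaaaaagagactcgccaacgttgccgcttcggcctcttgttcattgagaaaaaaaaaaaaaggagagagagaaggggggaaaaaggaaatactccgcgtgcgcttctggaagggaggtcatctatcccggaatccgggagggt
Nr1d2: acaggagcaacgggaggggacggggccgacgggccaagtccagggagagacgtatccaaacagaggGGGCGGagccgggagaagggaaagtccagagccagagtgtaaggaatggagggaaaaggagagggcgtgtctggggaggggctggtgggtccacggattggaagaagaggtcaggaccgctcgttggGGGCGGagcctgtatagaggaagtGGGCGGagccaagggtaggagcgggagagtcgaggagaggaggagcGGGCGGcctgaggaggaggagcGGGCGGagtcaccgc

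These letters occurred 7 times in the Kctd12 promoter, 2 times in that of Ints6, not at all in that of Spry2 and 5 times in that of Nr1d2, both strands counted. A high count was therefore seen both at the gene with the largest difference and at the gene with the difference closest to 0. The RefSeq table held promoters for 162 of the 239 genes. GGGCGG was present on either strand in 113 of them, or 69.8%, against 35.9% of the promoters of all 27025 genes in the table. CCAAT occurred in 38.9% against 37.9%, and TATAAA in 4.94% against 14.2%. At least 15 CG dinucleotides were found in 82.7% against 35.2%. The comparison table includes genes that are silent in these cells, whereas the chromosome 14 genes were chosen for a high level, and no test was made. The mature products of Mir15a, a microRNA gene within the Dleu2 locus known for targeting Bcl2, are printed because Mir15a was an exception to the pattern of its neighbours. In these RefSeq sequences (GRCm38.p6, minus strand, chr14:61632075-61632096 for the 5p arm and chr14:61632038-61632059 for the 3p arm) capitals mark the seed, bases 2 to 8, and the 2 arms share no seed.
mmu-miR-15a-5p: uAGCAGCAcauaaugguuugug
mmu-miR-15a-3p: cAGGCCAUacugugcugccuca

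The first question was whether the high and low IL-4Ra activity clones differed at these genes. For each clone the unstimulated and LPS values were averaged, which gave 3 high and 3 low clone means per gene. Nearly all genes of the set were higher in the high clones: the difference was above 0 for 230 and below 0 for 9. Its median was 0.51 on the log2 scale, a fold of 1.42, with quartiles of 0.38 and 0.62, a range of -0.26 to 1.19 and a median standard error of 0.095. The median over all genes tested was -0.005. All 3 high clones lay above all 3 low clones for 206 of the 239 genes, or 86.2%, and below them for 0, against 8.09% above and 7.98% below among all genes tested. Among genes of the other chromosomes that met the same rule on level and LPS difference, 6936 in number, 10.2% lay above and 10.3% below. Chromosome 15, described further below, was part of that set. It gave 199 of its 709 genes above and 1 of its 711 genes below.

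In limma with Benjamini-Hochberg adjustment over all 27293 genes, 117 of the 239 genes, or 49.0%, were called higher in the high clones and 0 lower, with a smallest adjusted p of 0.0101. The background was 1.05% of all genes called higher and 0.224% called lower, and 0.678% and 0.173% among the genes of other chromosomes that met the same rule. Of the 47 genes behind the 0.678%, 31 lay on chromosome 15. The 117 genes of the set made up 40.9% of the 286 genes called higher in all. At an unadjusted p under 0.05 there were 206 of the set, against 11.2% of all genes. The number called rested on single clones. It was 0 without clone 29 and 0 without clone 75, where limma called 0 genes of the whole array and 195 and 203 of the set had an unadjusted p under 0.05. Without clone 7, 69, 73 or 83 it was 38, 61, 71 or 33. The median difference stayed between 0.47 and 0.54 in these 6 fits, each of which had 1 clone fewer to compare. The number of genes whose clones did not overlap, with the high clones above or below, was 207 to 214. Leaving out a clone cannot lower that number, so it is no measure of stability. With both arrays of each clone entered singly and the clone as a random block, 168 were called.

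Genes differed in the size of the difference. It was at least 0.25 for 207 genes, lay between 0.25 and 0.75 for 186, exceeded 0.75 for 21 and was at least 1 for 3.

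**Figure D1:**
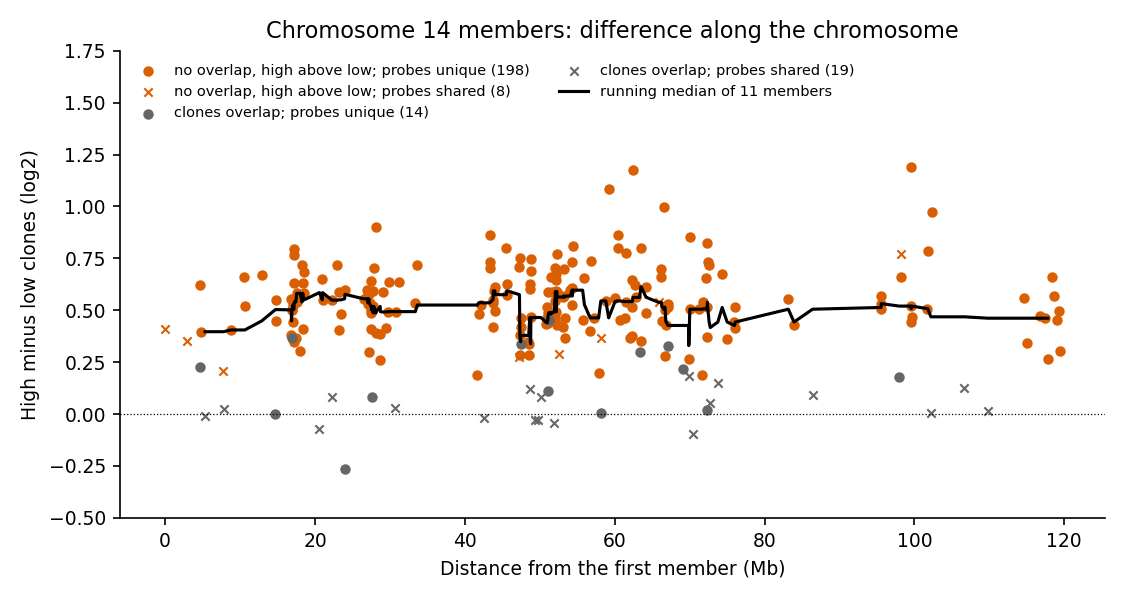
High minus low difference of clone means (log2, vertical axis) of the 239 genes against the distance of their start from that of the first gene (Mb, horizontal axis). Colours separate genes whose clones did and did not overlap, symbols separate unique and shared probes, and the line is a running median of 11 genes. The line stays between 0.33 and 0.61 over its 229 windows and stops short of the first and last genes.

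The starts of the 239 genes ran from 3.48 to 123 Mb, and the difference was seen over the whole of that span. In windows of 10 Mb with at least 5 genes, the median lay between 0.38 (0 to 10 Mb, 6 genes) and 0.56 (40 to 50 Mb, 16 genes). Windows of 11 neighbouring genes had running medians between 0.33 and 0.61 over 229 windows, so no stretch of 11 neighbours had a median near 0. The densest window, 50 to 60 Mb, held 57 genes, of which 49 had all high clones above all low clones and 25 were called in limma. At the distal end, from 120 Mb on, the clones did not overlap at 8 of 8 genes and the median was 0.47. The lowest median of all windows, 0.23, came from 110 to 120 Mb and rested on 4 genes. Of those, the 2 with unique probes had a median of 0.45. The longest unbroken run of neighbours whose clones did not overlap held 30 genes, from Dhrs4 to Dleu2.

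The window with the largest median, 40 to 50 Mb, began with Txndc16 and ended with Naa30. Txndc16, a thioredoxin domain protein of the endoplasmic reticulum, averaged 6.68 ± 0.01 in low and 6.87 ± 0.02 in high clones (SD, n = 3 each). Its clones did not overlap, yet the difference of 0.19 was not called (limma, Benjamini-Hochberg adjusted p = 0.38). Naa30, the catalytic subunit of an N-terminal acetyltransferase, differed by 0.63 (limma adjusted p = 0.0167). The largest differences of the window were at Cgrrf1, a RING finger protein (0.86), Exoc5, a subunit of the exocyst that tethers secretory vesicles (0.80), and Gmfb, an actin debranching factor (0.73), all called in limma. Of the 16 genes 15 had non-overlapping clones and 13 were called.

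**Figure D2:**
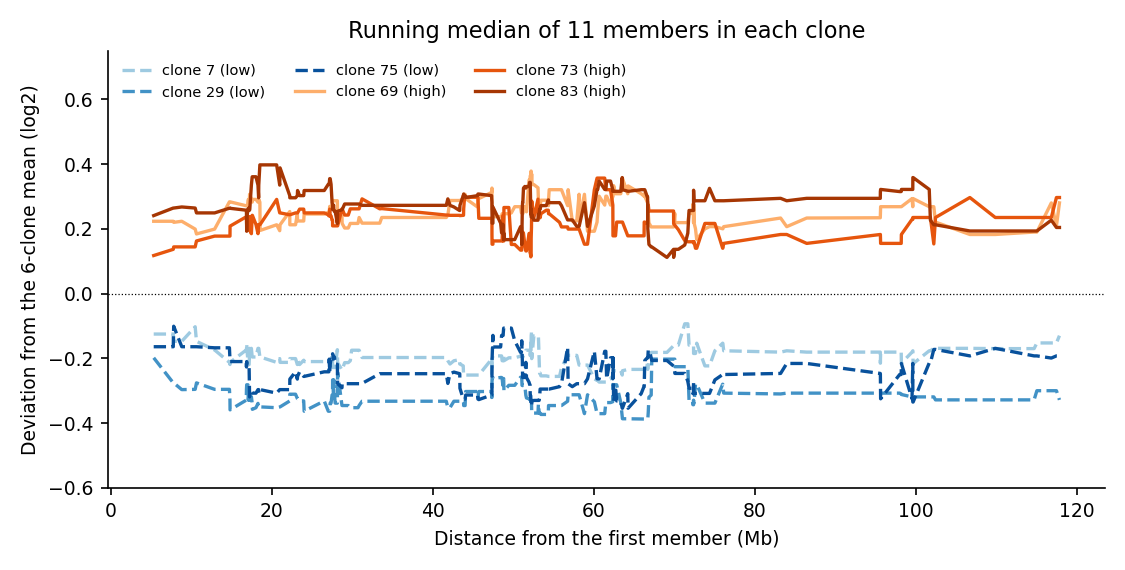
Running median over 11 neighbouring genes of each clone's deviation from the 6-clone mean (log2, vertical axis) against distance from the first gene (Mb, horizontal axis), with low clones as dashed blue and high clones as solid orange lines. The 3 low clones stay below 0 and the 3 high clones above 0 along the lines, which stop short of the first and last genes.

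All 3 clones of a phenotype moved together. The median deviation from the 6-clone mean was -0.20 in clone 7, -0.32 in clone 29 and -0.25 in clone 75. It was 0.27 in clone 69, 0.21 in clone 73 and 0.27 in clone 83. Within each phenotype the medians had a pooled SD of 0.05. Each low clone lay below the 6-clone mean at 215 to 226 of the genes and each high clone above it at 223 to 227. On the unstimulated arrays the medians of the low clones ran from -0.32 to -0.19 and those of the high clones from 0.20 to 0.26, and on the LPS arrays from -0.32 to -0.19 and from 0.24 to 0.28. The deviations of single genes from the mean of the 6 arrays of a condition were correlated between the arrays of a clone. Pearson correlations across the 239 genes were 0.538, 0.611, 0.613, 0.397 and 0.608 in clones 7, 29, 69, 73 and 83 and 0.108 in clone 75. These are correlations across genes, which are not independent replicates, and both deviations share the clone. Both also hold the gene's difference between the phenotypes, which itself correlated at 0.693 between the conditions. They therefore do not show a recurrence particular to a clone. For genes that met the same rule, pooled over all other chromosomes with chromosome 15 included, the clone medians lay between -0.04 and 0.03. Taken chromosome by chromosome, without 14 and 15, they ran from -0.17 (clone 75, chromosome 18) to 0.30 (clone 73, chromosome 12). On chromosome 18 high clones 69 and 73 lay on opposite sides of 0, at 0.19 and -0.16.

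The same order was seen in both conditions. In unstimulated cells 95 genes were called higher and 0 lower (limma, background 0.92% and 0.216% of all genes), with a median difference of 0.49 and a range of -0.31 to 1.38. With LPS 120 were called higher and 0 lower (background 0.982% and 0.333%), with a median of 0.52 and a range of -0.22 to 1.15. The high arrays lay above the low arrays for 195 genes without stimulation (background 7.97%), for 188 with LPS (background 7.55%) and for 172 in both. For 151 genes every 1 of the 6 high arrays lay above all 6 low arrays, against 1.40% of all genes. Leaving out 1 of the 12 arrays gave 23 to 105 calls without stimulation, the unstimulated arrays of clones 29, 83, 7, 69 and 75 moving the count most, to 23, 30, 47, 47 and 49. With LPS it gave 47 to 112, and omitting LPS arrays 83, 29, 69, 73, 7 or 75 (named by clone) gave 47, 49, 52, 58, 74 or 77. When only the 6 arrays of 1 condition entered the fit, 15 were called without stimulation and 35 with LPS.

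The rule had kept the mean LPS change of every gene small, so that change is not a finding. Whether it differed between high and low clones was tested as an interaction, and limma called 0 of the 239 genes, with a smallest adjusted p of 0.983. Among all genes 0 were called with a larger change in the high clones and 3, or 0.011%, with a smaller one. At an unadjusted p under 0.05 there were 8, or 3.35%, against 4.73% of all genes, and limma with the clone as block also called 0, with 17 at an unadjusted p under 0.05. The median difference of LPS changes was 0.03, with a range of -0.53 to 0.65 and a median standard error of 0.168.

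**Figure D3:**
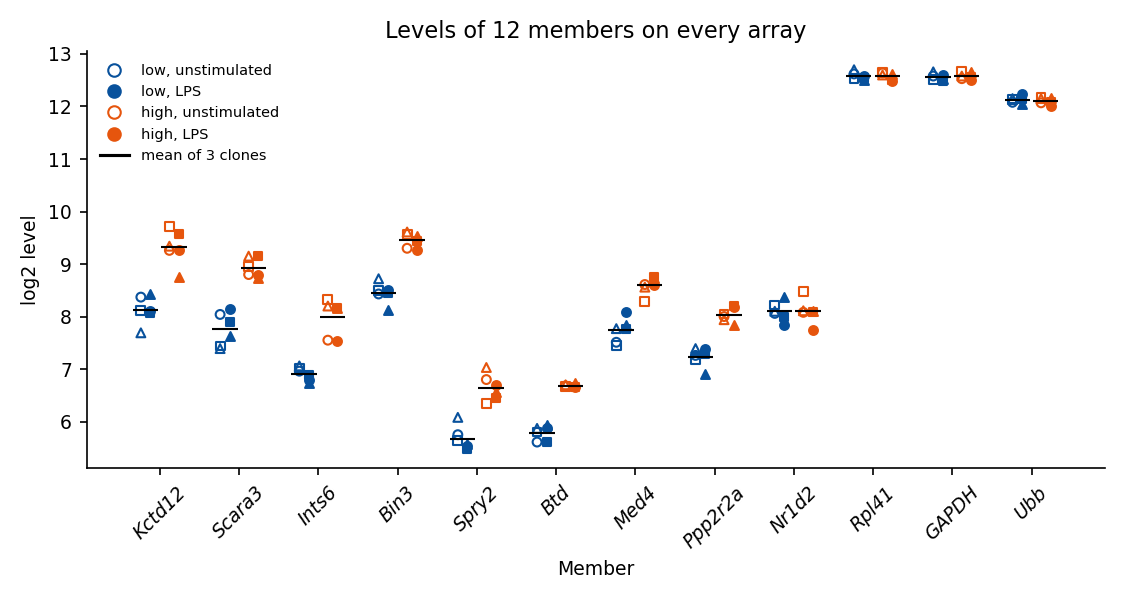
Log2 levels (vertical axis) of 12 genes on each of the 12 arrays, with low clones in blue and high clones in orange, open symbols for unstimulated and filled symbols for LPS arrays, 1 symbol shape per clone of a phenotype, and a bar at the mean of 3 clones. From Kctd12 to Ppp2r2a all 6 high arrays lie above all 6 low arrays, and at Nr1d2, Rpl41, GAPDH and Ubb they overlap.

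Kctd12, an auxiliary subunit of GABA-B receptors, had the largest difference (chromosome 14, 102976581 to 102982637, minus strand, mm10). It measured 8.37, 8.11 and 7.69 in unstimulated low clones 7, 29 and 75 and 9.26, 9.71 and 9.34 in unstimulated high clones 69, 73 and 83. With LPS the same clones gave 8.10, 8.07 and 8.43 against 9.27, 9.58 and 8.75. No low array reached the lowest high array. Its clone means of 8.13 ± 0.09 and 9.32 ± 0.30 (SD, n = 3 each) differed by 1.19 ± 0.15 (SE), a fold of 2.28 (limma adjusted p = 0.0137).

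Scara3, a scavenger receptor class A family member known for a role in oxidative stress, followed (65919395 to 65953744, minus strand). Its unstimulated values were 8.04, 7.44 and 7.39 in low clones 7, 29 and 75 and 8.80, 8.95 and 9.15 in high clones 69, 73 and 83, and its LPS values 8.14, 7.90 and 7.63 against 8.80, 9.15 and 8.73. Clone 7 was the highest of the low clones in both conditions, and the groups did not overlap. The difference was 1.17 ± 0.15, a fold of 2.26 (limma adjusted p = 0.0151).

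Ints6, a subunit of the Integrator complex that processes small nuclear RNAs (62676320 to 62761112, minus strand), was tightly grouped in the low clones at 6.91 ± 0.04 and spread in the high clones at 7.99 ± 0.39. Clone 69 gave 7.55 and 7.54, clone 73 gave 8.33 and 8.17 and clone 83 gave 8.20 and 8.16 without and with LPS, whereas the low arrays ran from 6.74 to 7.06. The lower position of clone 69 among the high clones was thus seen on both of its arrays. The difference was 1.08 ± 0.17, a fold of 2.12 (limma adjusted p = 0.0262).

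Bin3, a BAR domain protein that acts on the actin cytoskeleton (70100145 to 70138206, plus strand), measured 8.43, 8.50 and 8.72 in unstimulated low and 9.30, 9.56 and 9.61 in unstimulated high clones. With LPS it measured 8.51, 8.45 and 8.12 against 9.27, 9.43 and 9.53. The groups were apart in both conditions, and the difference of 0.99 ± 0.10 was a fold of 1.99 (limma adjusted p = 0.0101). Btd, biotinidase, which releases biotin for reuse (31641028 to 31668579, plus strand), had even high clones: 6.68, 6.67 and 6.70 without stimulation and 6.65, 6.66 and 6.74 with LPS. Its low arrays ran from 5.61 to 5.93, and the difference was 0.90 ± 0.09, a fold of 1.87 (limma adjusted p = 0.0101).

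Genes with a role in signalling were examined as 1 of 8 lists of roles. The counts of each list stand beside the whole set, where 86.2% of the 239 genes had non-overlapping clones and 49.0% were called higher. Among all genes tested 8.09% lay above without overlap and 1.05% were called higher. Of 16 signalling genes in the set 15 had all high clones above all low clones and 9 were called higher in limma, with a median difference of 0.55. Spry2, a feedback inhibitor of receptor tyrosine kinase signalling (105891947 to 105896819, minus strand), led the list. It measured 5.75, 5.64 and 6.08 in unstimulated low clones and 6.80, 6.34 and 7.03 in unstimulated high clones, and 5.53, 5.47 and 5.57 against 6.70, 6.45 and 6.56 with LPS. Every high array lay above every low array, and the difference was 0.97 ± 0.13, a fold of 1.96 (limma adjusted p = 0.0151). Mtmr6, a phosphatase of phosphoinositides, differed by 0.74 (limma adjusted p = 0.0158). Among genes named after their values were seen, the kinases Mapk8 (JNK1, 0.64, limma adjusted p = 0.0177), Ptk2b (Pyk2, 0.62, limma adjusted p = 0.0436) and Prkcd (protein kinase C delta, 0.58, limma adjusted p = 0.0396) were higher, and Tbc1d4, a Rab GTPase-activating protein, was the lowest of the list at 0.18 (limma adjusted p = 0.574).

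Of 19 genes for chromatin and transcription 18 had non-overlapping clones and 10 were called higher, with a median of 0.49. The exception was D14Abb1e, described below, with the lowest value of the list at -0.26. Med4, a subunit of the Mediator complex that links transcription factors to RNA polymerase II, had low clones at 7.51, 7.45 and 7.77 and high clones at 8.61, 8.29 and 8.56 without stimulation. With LPS it gave 8.09, 7.77 and 7.83 against 8.61, 8.75 and 8.73. The groups were apart in both conditions, with a difference of 0.85 ± 0.09 and a fold of 1.81 (limma adjusted p = 0.0114). Gtf2f2, a subunit of the general factor TFIIF, differed by 0.73, and Parp2, a poly(ADP-ribose) polymerase of DNA repair, by 0.75, both called in limma.

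Of 20 genes for RNA processing and translation 19 had non-overlapping clones and 13 were called higher, with a median of 0.51 and a range from 0.34 at Osgep to 1.08 at Ints6. Outside that list, Nop9, a factor of ribosomal RNA maturation, differed by 0.77 and Mettl3, the catalytic subunit of the N6-methyladenosine writer, by 0.75, both called. Snora31, a small nucleolar RNA that guides pseudouridylation and lies within Tpt1, differed by 0.82 ± 0.13 (limma adjusted p = 0.0265). It was not called with the clone as block (adjusted p = 0.0543), and its adjusted p ran from 0.0265 to 0.117 over 8 fits. Tpt1 itself, named after its value was seen, differed by 0.37 (limma adjusted p = 0.127).

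Of 16 genes for the cell cycle, DNA repair and division the clones did not overlap at any of the 16, and 11 were called higher, with a median of 0.56. Ppp2r2a, a regulatory subunit of protein phosphatase 2A, differed by 0.80 ± 0.10 (limma adjusted p = 0.0132) and Pinx1, an inhibitor of telomerase, by 0.80 (limma adjusted p = 0.0151). Ska3, a kinetochore protein outside the list, differed by 0.73 (limma adjusted p = 0.0226).

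Of 18 genes for ubiquitin, the proteasome and protein quality, likewise, no gene overlapped between the phenotypes, and 9 were called higher, with a median of 0.51 and a lowest value of 0.44 at Psmb5, a catalytic subunit of the proteasome. Kctd12 was entered in this list for its domain family, and the list also held the importins Ipo4 and Ipo5. Ndfip2, an adaptor of NEDD4-family ligases, differed by 0.78 and Uchl3, a deubiquitinating enzyme, by 0.77, both called, although the probes of Uchl3 are annotated as matching more than 1 place. Zswim8, a ubiquitin ligase receptor that takes part in microRNA decay, was outside the list and even within both phenotypes: 7.25 ± 0.03 in low and 8.02 ± 0.02 in high clones, a difference of 0.77 (limma adjusted p = 0.0111).

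Of 19 genes for mitochondria and metabolism 18 had non-overlapping clones and 7 were called higher, with a median of 0.51. Ghitm, a protein of the inner mitochondrial membrane, had the largest difference of that list at 0.72 (limma adjusted p = 0.0168). Micu2, a regulator of the mitochondrial calcium uniporter, and Chchd1, a component of the mitochondrial ribosome, were outside the list and differed by 0.81 and 0.80, both called. Pck2, mitochondrial phosphoenolpyruvate carboxykinase, differed by 0.70 ± 0.14 and was not called (limma adjusted p = 0.0608), but was with the clone as block (adjusted p = 0.00504, range over 8 fits 0.00504 to 0.194).

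Of 21 genes for membrane traffic and organelles 19 had non-overlapping clones and 9 were called higher, with a median of 0.48. Cnih, cornichon, a receptor for cargo leaving the endoplasmic reticulum, led with 0.70 (limma adjusted p = 0.0127). The list's lowest value was 0.26 at Itm2b (limma adjusted p = 0.286). Of 10 genes for the cytoskeleton and adhesion 8 had non-overlapping clones and 3 were called, and their median of 0.33 was the lowest of the 8 lists. Besides Bin3, that list held Lcp1, the actin bundler L-plastin of leukocytes, at 0.19 (limma adjusted p = 0.505), and Vcl, vinculin, at 0.37 (limma adjusted p = 0.143). No test between lists or against the whole set was made, so these counts are not results about the roles.

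A large difference was not always called. Sox7, a transcription factor known from endothelial development, differed by 0.86 ± 0.23 (limma adjusted p = 0.147), with low clones at 6.00 ± 0.10 and high clones at 6.86 ± 0.54. Clone 69 gave 6.40 and 6.10, and without it the difference was 1.17 (limma adjusted p = 0.013). With the clone as block the adjusted p was 0.0294, and over 8 fits it ran from 0.013 to 0.364. Nkiras1, an inhibitor of NF-κB signalling, was just above the minimum level and differed by 0.55 (limma adjusted p = 0.0532), or 0.0308 with the clone as block and 0.0308 to 0.192 over 8 fits.

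The 33 genes whose high and low clones overlapped were next examined. Of the 239 genes 27 had probes annotated as matching more than 1 place. Of these, 8 (29.6%) had non-overlapping clones, 1 was called and the median difference was 0.08. Among the 212 genes with unique probes 198 (93.4%) had non-overlapping clones, 116 were called and the median was 0.53. RefSeq placed 222 of the 239 genes on chromosome 14, and of these 202 had non-overlapping clones and 117 were called. For 4 genes, Rpl23a, Ubb, Rpl41 and Tpm3, RefSeq gives another chromosome, and their differences lay between -0.02 and 0.03. Rpl41, a ribosomal protein, averaged 12.58 in low and 12.59 in high clones, a difference of 0.00 ± 0.08 (limma adjusted p = 0.994). The feature named GAPDH differed by 0.02 ± 0.08 (limma adjusted p = 0.96) and that of Ubb, polyubiquitin B, by -0.02 ± 0.08 (limma adjusted p = 0.966). Of 13 genes without a RefSeq match 4 had non-overlapping clones, with a median of 0.13. The features of Trav9d-3 and A430107P09Rik had identical values on all 12 arrays.

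The other 14 overlapping genes had unique probes and were named after their values were seen: Pxk, Nr1d2, Anxa7, D14Abb1e, Nt5dc2, Osgep, 4931414P19Rik, Slc7a8, Mir15a, Dpysl2, Nudt18, Fndc3a, Gm4285 and Tbc1d4. They were scattered along the chromosome and lay between neighbours that did not overlap. Nr1d2, the nuclear receptor REV-ERB beta of the circadian clock (18204054 to 18239127, minus strand), measured 8.06, 8.22 and 8.10 in unstimulated low and 8.08, 8.47 and 8.11 in unstimulated high clones, and 7.84 to 8.37 against 7.74, 8.08 and 8.10 with LPS. The groups overlapped in both conditions, and its difference was -0.00 ± 0.12 (limma adjusted p = 0.996). D14Abb1e, called Tasor in RefSeq, is a subunit of the HUSH silencing complex (27428847 to 27483555, plus strand) and had the most negative difference. It measured 7.27, 7.18 and 6.84 in unstimulated low and 6.62, 7.22 and 6.53 in unstimulated high clones, and 7.60, 7.35 and 7.04 against 7.23, 7.14 and 6.96 with LPS. Clone 73 lay within the low range in both conditions and clone 69 did with LPS, and the difference of -0.26 ± 0.15 was not called (limma adjusted p = 0.602).

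Mir15a (61632027 to 61632110, minus strand), whose mature products are printed above, measured 8.49, 8.19 and 8.57 in unstimulated low and 8.26, 8.34 and 8.27 in unstimulated high clones. With LPS it measured 8.08, 7.98 and 8.01 against 7.86, 8.33 and 8.29. The groups overlapped, and the difference was 0.01 ± 0.10 (limma adjusted p = 0.993). Its neighbour Dleu2 (61628602 to 61630414), with probes that match more than 1 place, had non-overlapping clones and differed by 0.37 ± 0.09 (limma adjusted p = 0.104). The array feature of a microRNA gene reads its precursor region and does not measure the mature arms.

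**Figure D4:**
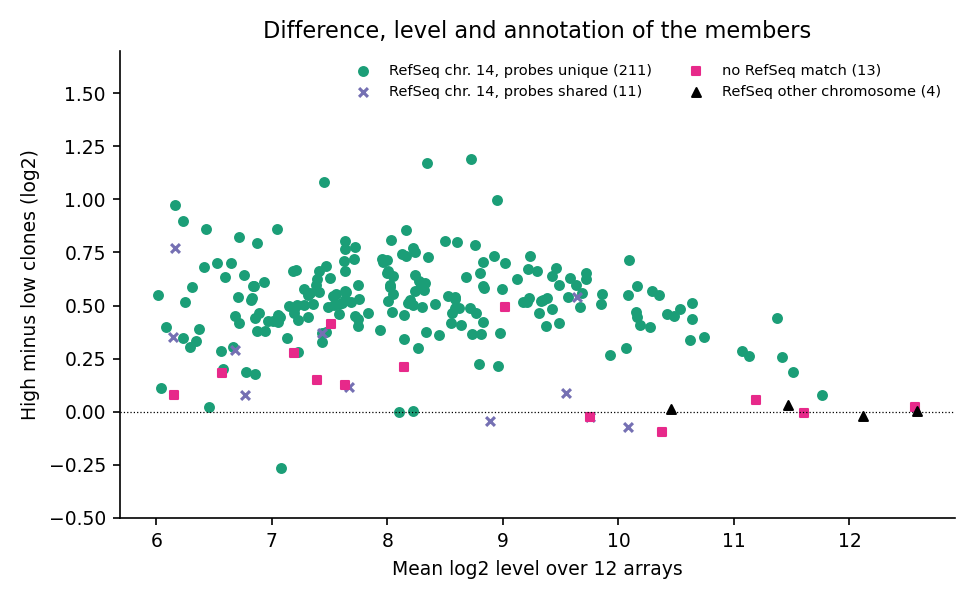
High minus low difference of clone means (log2, vertical axis) against the mean log2 value over the 12 arrays (horizontal axis) for the 239 genes, with symbols for probe uniqueness and for the place RefSeq gives the gene. The 211 genes that RefSeq places on chromosome 14 and that have unique probes lie mostly between 0.25 and 0.75 at every level, and the 4 that RefSeq places elsewhere lie near 0.

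The difference varied little with the level of a gene. Among genes with unique probes the median was 0.49 at means of 6 to 7 (38 genes), 0.53 at 7 to 8 (59 genes), 0.57 at 8 to 9 (63 genes), 0.54 at 9 to 10 (29 genes) and 0.44 at 10 and above (23 genes). Genes on the plus strand (106) and the minus strand (133) had medians of 0.52 and 0.51.

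The contrast was also examined in chromosome 14 features that the rule left out, where it was large at high levels of named genes and small at low levels and in features without a symbol. Of 87 genes with a mean of at least 6 and a larger LPS difference, 65 (74.7%) had all high clones above all low clones and 2 had them below, with a median of 0.45. On the other chromosomes 11.1% of 2621 such genes lay above. For means of 5 to 6 the clones were apart upward at 58 of 97 genes (59.8%, median 0.39), against 9.80% elsewhere. For means of 4 to 5 this held for 25.3% of 174 genes (median 0.10), with 6 apart downward, beside 8.09% upward among all genes tested. Below 4 it held for 7.44% of 511 (median 0.03), with 12 apart downward, against 3.45% upward elsewhere at that level. Of the chromosome 14 features without a symbol, 1 of 10 with a mean of at least 6 lay apart upward and 1 downward (median 0.03). On the other chromosomes 6.64% of 422 such features lay apart upward and 42 features downward. Of 184 chromosome 14 features without a symbol and with a lower mean, 25 lay apart upward (13.6%, median 0.04) and 3 downward. No share elsewhere is given for that level. At the threshold on level, Nkiras1 (6.02) and 4931414P19Rik (6.04) were just inside and Selk (5.96) and Dad1 (5.97) just outside. At the threshold on the LPS difference, Pck2 (0.30) and Gm3594 (-0.30) were just inside and Ncoa4 (-0.30) and Snord69 (0.31) just outside. The 3 genes left out by name had high minus low differences of 0.23 at Ctsb, 0.48 at Dnajc3 and 0.41 at Stab1, all without overlap between clones.

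**Figure D5:**
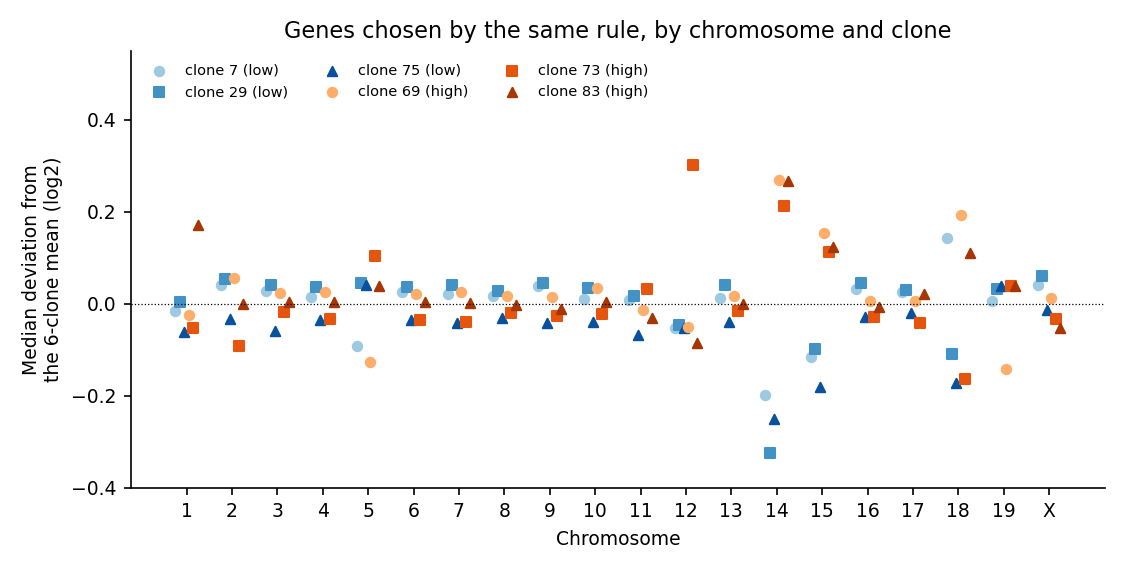
Median deviation of each clone from the 6-clone mean (log2, vertical axis) over the genes of each chromosome (horizontal axis) that met the same rule on level and LPS difference, with low clones in blue and high clones in orange. On chromosomes 14 and 15 all low clones lie below 0 and all high clones above it, and on chromosome 12 clone 73 alone lies at 0.30.

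By the same rule chromosome 15 gave 288 genes, with a median difference of 0.27, 199 genes (69.1%) with all high clones above all low clones and 31 called higher in limma. The other chromosomes had medians between -0.05 and 0.12 and shares between 2.60% and 12.4%. Over all levels and LPS responses, chromosome 14 genes made up 168 of the 286 genes called higher in the array and chromosome 15 genes 63. Whether chromosome 14 differed from any other chromosome was not tested, since the genes of a chromosome are not replicates of a condition.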

How the data were processed

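RNA of 6 MH-S clones, each without stimulation and with LPS, was read on 12 arrays. The authors made the log2 values they deposited by RMA (background correction, quantile normalization and probe summary) in Affymetrix Expression Console, per the file headers and the submitters' processing notes. Its version was not given in the sources used here. Annotation and positions are those of NetAffx build 34 on mm10, per the file headers, and symbols are those of the file. The series matrix, which shares 41155 features with the workbook, differed from it by at most 0. There were 0 unused columns of values per sample, and the authors' own comparison columns were not used. Quantile normalization sets the arrays to 1 distribution, so differences are relative to all genes.

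From 41345 features, 33793 in the main category and 29294 with a symbol, the brightest feature per symbol gave 27293 genes. Means of each clone's 2 arrays were compared with limma 3.58.1 in R 4.3.3 (lmFit and eBayes, Benjamini-Hochberg adjustment over all genes, threshold 0.05). The differences within each condition and their interaction came from a limma fit of all 12 arrays without a clone term. The number of arrays limits the precision. The clone number pairs the arrays, since the labels give each clone 1 array per condition. Deviations from the group mean correlated between a clone's own arrays (0.100 to 0.415). All correlations between different clones were below 0, but centring on a group mean pushes them down, so they are no separate support for the pairing. Scripts were tested on simulated data. Genes named by rule were the 20 largest differences and called genes up to 30, the largest of each role list, those of the strongest 10 Mb window, those at the thresholds and the 3 smallest with even clones. Genes named outside that rule, Vcl, Lcp1, Itm2b, Psmb5, Osgep and Dleu2 among them, were picked after their values were seen. Members, role lists and marker lists were chosen with earlier results of these data known. Alternatives were a clone block, trend and robust eBayes, single conditions, feature choice, centring, other thresholds, other windows and leaving out each clone or array; unique probes alone was added after seeing the data.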

Additional observations from a re-analysis of the deposited data

Results flagged for a closer look

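In 9 of the 239 genes the LPS change had one sign in every high clone and the opposite sign in every low clone, which is 3.77% of the genes against 2.41% of all genes tested. These shares are not like for like. The rule kept the mean LPS change small, whereas all genes include those with a large change, where opposite signs are less likely. The difference of the LPS changes, high minus low on the log2 scale, was 0.41 at Zmym2, 0.38 at Parp2, 0.35 at Akap11, 0.32 at Usp54, 0.31 at Haus4 and 0.09 at Ap3m1. It was -0.40 at 3830406C13Rik, -0.29 at Chmp7 and -0.27 at Ptk2b. The names were chosen after their values were seen. None passed limma's interaction test (Benjamini-Hochberg adjusted p from 0.983 to 0.988). The groups of 3 clones were too small for a check of single outlying samples.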

How the results depend on the processing

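The median difference of the 239 genes lay between 0.47 and 0.54 in every alternative run, and no count of genes called lower rose above 0 in the fits printed here. The number called higher from clone means, 117, was 15 with the unstimulated arrays alone, 35 with the LPS arrays alone and 0 to 71 with 1 clone left out (0 without clone 29 or 75). Pairing the arrays of a clone as a replicate block gave 168 calls, and in the fits within conditions 100 without stimulation and 117 with LPS, and 0 for the interaction. Fits of 6 arrays gave 15 without stimulation and 35 with LPS, and leaving out 1 of the 12 arrays gave 23 to 105 and 47 to 112, with 0 to 0 for the interaction. The lowest median among 10 Mb windows with at least 5 genes, 0.38 in the report, was 0.43 with LPS arrays alone, 0.25 with unstimulated arrays alone, 0.32 with windows moved by 5 Mb and 0.28 to 0.42 with 1 clone left out. The cause of these shifts was not tested. Other settings gave 128 calls with trend and robust eBayes, 154 with dim genes left out, 116 of 212 with unique probes alone, 101 of 195 at a minimum mean of 7 and 124 of 297 at 5. The number of arrays limits what small differences could be called. Single genes were rerun in 7 alternatives, the replicate block and each clone left out. Of the 41 genes of the set named by the rule above, 38 kept their sign in all 7. The exceptions were Rpl41, GAPDH and Ubb, whose differences ran from -0.02 to 0.02, -0.01 to 0.06 and -0.05 to 0.02 over 8 fits, with 0 of them called. Genes whose clones do not overlap must keep their sign when a clone is left out, and the replicate block does not change the estimate. For such genes, most of those named, the kept sign was therefore fixed in advance.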
